A study of Rattus norvegicus with 24 samples.

Results

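The adipokines are proteins that fat tissue releases into the blood. Measured here were the mRNAs of leptin (Lep), adiponectin (Adipoq), adipsin (Cfd), retinol binding protein 4 (Rbp4) and the NAD-synthesising enzyme Nampt, also described as the secreted protein visfatin, together with the adiponectin receptors Adipor1 and Adipor2 and the leptin receptor Lepr. Members were the probe sets (groups of short probes read together as 1 signal) that the array annotation gives to exactly 1 of 9 listed genes. This found 17 probe sets for 8 genes, of 31042 probe sets and 14217 named genes in all. Lep, Adipoq, Cfd, Rbp4 and Adipor1 had 1 probe set each, Nampt had 2, Adipor2 had 3 and Lepr had 7. No probe set was matched to resistin (Retn), the ninth listed gene, which was not analysed here.

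The arrays came from male Wistar rats, labelled as 8 weeks old and 7 weeks old at the start, with no transgene or drug given in the labels. For 7 days all animals could eat only between hours 10 and 16. Then, on day 8, food was given to 4 rats (fed) and withheld from 4 (fasted), and interscapular brown adipose tissue (BAT), perinephrial white adipose tissue (WAT) and liver were taken at hour 16, after 24 h without food in the fasted rats. This gave 24 arrays in 6 groups of 4; fed animals are numbered 1, 2, 4 and 5 and fasted animals 6, 8, 9 and 10. All rats had been trained to the daily meal, so the fed group is a meal-fed group and not one with free access to food.

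Leptin is secreted by fat cells in proportion to their fat store, signals through Lepr to limit food intake, and is known to fall in fasting. Adiponectin circulates as multimers and acts through Adipor1 and Adipor2, which are linked to AMP-activated kinase, ceramide breakdown and fatty acid oxidation, with Adipor2 best known from liver. Adipsin is a protease of the alternative complement pathway, Rbp4 carries retinol out of the liver and is also made by fat, and Nampt makes the precursor of NAD that sirtuins use.

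The RefSeq promoters of Lep and Adipoq are shown first, because fasting lowered the first of these fat hormones in WAT and gave no called change of the other. Each runs from 250 bases before to 50 bases after the annotated start, in the rat build GRCr8, 5′ to 3′ on the strand of the gene. Capitals mark matches, on either strand, to motifs spelt TTGCNNAA (the core bound by C/EBP factors), GGGCGG (the GC box) and CCAAT (a promoter element named after its letters and shown as ATTGG where inverted). The Lep promoter lies at chr4:58626288-58626587 on the plus strand and the Adipoq promoter at chr11:91240120-91240419 on the minus strand.
Lep: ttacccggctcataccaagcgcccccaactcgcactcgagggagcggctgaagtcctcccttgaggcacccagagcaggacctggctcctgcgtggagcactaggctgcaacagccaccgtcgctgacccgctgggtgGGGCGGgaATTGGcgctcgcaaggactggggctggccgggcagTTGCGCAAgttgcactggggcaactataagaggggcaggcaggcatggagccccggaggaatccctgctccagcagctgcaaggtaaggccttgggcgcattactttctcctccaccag
Adipoq: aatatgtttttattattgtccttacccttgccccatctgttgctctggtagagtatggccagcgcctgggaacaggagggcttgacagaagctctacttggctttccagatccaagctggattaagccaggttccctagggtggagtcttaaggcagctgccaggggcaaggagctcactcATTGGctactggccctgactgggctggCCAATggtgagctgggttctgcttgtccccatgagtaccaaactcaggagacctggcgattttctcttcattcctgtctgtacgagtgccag
In the Lep promoter TTGCGCAA, which matches on both strands, begins 69 bases before the start, an inverted CCAAT box 104 bases before it and a GC box 112 bases before it. In the Adipoq promoter a CCAAT box begins 42 bases and an inverted one 69 bases before the start. TTGCNNAA was found in 3 of 8 listed genes with a promoter entry (Lep, Rbp4 and Adipor2) and in 10.6% of all 33469 promoters of this length. GGGCGG was found in 5 of 8 (Lep, Retn, Cfd, Rbp4 and Adipor1) and in 33.1% of all. CCAAT was found in 4 of 8 (Lep, Adipoq, Adipor2 and Lepr) and in 37.5% of all. The E-box CACGTG and the glucocorticoid half-site TGTTCT were in none of the 8, against 6.42% and 20.7% of all promoters. These matches describe letters in the window, and their part in any fasting change was not tested.

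Signals below are MAS5 intensities scaled to a common array level; differences are log2(signal + 1.9), fasted minus fed unless stated, ± SE from limma, with p adjusted over the 18625 probe sets tested per fit. A probe set was tested if it was brighter, by its mean over the arrays fitted, than the 40th percentile of probe sets, a signal of about 17.9 in BAT, 18.1 in WAT and 13.2 in liver. Thus 10 member probe sets were tested in BAT, 11 in WAT and 12 in liver, and the words rose and fell are kept for adjusted p under 0.05. Adipocyte markers had a mean log2 level of 12.18 ± 0.05 (SD, n = 4) in fed BAT, 11.9 ± 0.19 in fed WAT and 5.49 ± 0.26 in fed liver. Hepatocyte markers were at 12.7 ± 0.12 in fed liver. Brown adipocyte markers were at 9 ± 0.07 in fed BAT and 4.36 ± 0.19 in fed WAT, so the tissue labels matched their markers. Skeletal muscle markers (13 of 14 on the array) set some arrays apart. In BAT their mean log2 level was 6.98, 5.26, 4.37 and 11.43 in fed animals 1, 2, 4 and 5, and 11.79 to 12.24 in the fasted animals. In WAT it was 3.57 to 3.96 in the fed animals, 4.36 and 3.86 in fasted animals 6 and 9, and 10.82 and 11.82 in fasted animals 8 and 10. Their summed signal ran from 5055 to 47136 in fed BAT, 56554 to 71278 in fasted BAT, 1945 to 2146 in fed WAT and 1742 to 55850 in fasted WAT. In fed WAT, Acta1 (11.8), Myh4 (1.93), Ckm (2.12) and Myh2 (1.78) were near the floor of the array. Myh1 was bright in every group, at 1903 in fed WAT, 2379 in fed liver and 4929 and 5065 in fed and fasted BAT. Myh1 thus made up most of the summed signal in fed WAT. The summed signal of 4 lymphocyte markers in WAT was 2205 in fed animal 1, 1097 and 1205 in fasted animals 6 and 8, and 34.8 to 177 on the other WAT arrays. The 3′ to 5′ log2 ratio of actin, which depends on how intact the RNA is, was 1.46 ± 0.47 in fed and 0.97 ± 0.09 in fasted BAT. The same ratio of Gapdh was 0.25 ± 0.02 in fed and 0.29 ± 0.03 in fasted BAT. In fed and fasted WAT the actin ratio was 1.06 ± 0.27 and 1.08 ± 0.26, and in liver 1.64 ± 0.33 and 1.81 ± 0.17. The Gapdh ratio was 0.11 ± 0.04 and 0.03 ± 0.09 in WAT and 0.47 ± 0.13 and 0.39 ± 0.07 in liver. The part of these ratios in the differences between tissues was not tested. In these bulk samples fewer cells of a type and less mRNA per cell cannot be told apart.

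**Figure D1:**
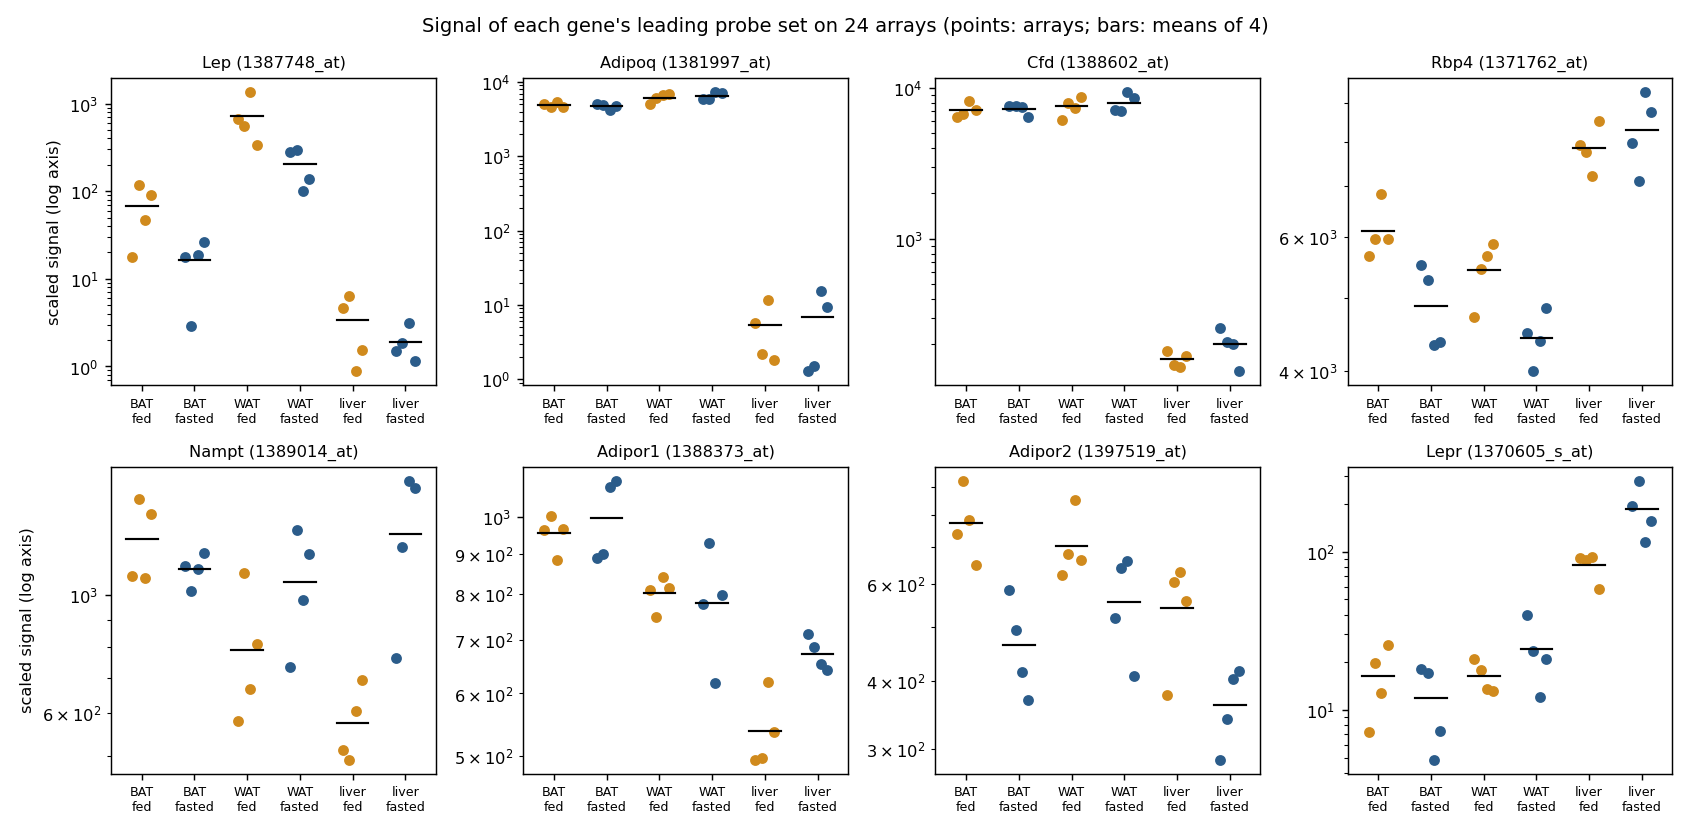
Scaled signal (log axis, with its own range in each panel) of the leading probe set of each of the 8 genes in the 6 groups; each point is 1 array, fed in orange and fasted in blue, and bars are means of 4. Lep was brightest in WAT and lower in fasted than in fed WAT, Adipoq and Cfd were bright in both fats and dim in liver, and Lepr was brightest in fasted liver.

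Leptin mRNA was highest in fed WAT and fell there with fasting. Its probe set 1387748_at read 670 in fed animal 1, 555 in animal 2, 1344 in animal 4 and 334 in animal 5. The fasted WAT arrays read 280, 297, 101 and 139 in animals 6, 8, 9 and 10. All 4 fasted arrays lay below all 4 fed arrays, with fed animal 4 well above the rest. The means were 726 ± 435 and 204 ± 98.9 (SD, n = 4), a change of -1.78 ± 0.44 (adjusted p = 0.0233). This call ended without fed animal 4 (-1.42, adjusted p = 0.0541), fasted animal 9 (-1.49, adjusted p = 0.064) or fasted animal 10 (-1.64, adjusted p = 0.0511), with the muscle level as a covariate (-1.92 ± 0.57, adjusted p = 0.0704), and in the 4 arrays of the second scan day (fed animals 1 and 4, fasted animals 6 and 8; -1.71, adjusted p = 0.0635). Without the muscle-bearing fasted animals 8 and 10 the change was as large, -1.91 ± 0.54, with an adjusted p of 0.0656.

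In BAT the leptin signal was dimmer than in WAT, and the fed and fasted arrays overlapped. The fed arrays read 17.7, 118, 46.9 and 89.9 in animals 1, 2, 4 and 5. The fasted arrays read 17.9, 2.89, 18.6 and 26.6 in animals 6, 8, 9 and 10. Fed animal 1 sat among the fasted arrays and the other 3 fed arrays lay above all of them. The fasted mean lay below the level for testing in BAT (17.9), so Lep was tested there through its fed arrays, and the size is uncertain. The means were 68 ± 44.4 and 16.5 ± 9.91, a difference of -1.89 ± 0.65 that missed the threshold (adjusted p = 0.0686). It passed without fed animal 1 (-2.4, adjusted p = 0.0281), after scaling by quantiles (adjusted p = 0.0443) or by the array median (0.0464), with the scan day blocked (0.0108), on the first scan day alone (0.00846) and when all 24 arrays shared 1 estimate of the spread (0.018). On the second scan day alone (fed animals 1 and 4, fasted animals 6 and 8) Lep lay below the level for testing, and its fed and fasted readings overlapped. With the muscle level as a covariate the difference was -2.11 ± 1.11 (adjusted p = 0.446). Over the 17 alternative settings that tested Lep in BAT, the difference ran from -2.4 to -1.25. The leptin changes in BAT and WAT differed by -0.11 ± 0.79 (95% interval -1.75 to 1.53, adjusted p = 0.992), an interval too wide to show that they were alike.

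Liver signals of Lep, from 0.886 to 6.33, were below the level needed for testing within liver. Lep was higher in WAT than in BAT of the fed rats, where BAT minus WAT was -3.49 ± 0.56 (adjusted p = 2.71e-05). In the fasted rats all 4 BAT arrays (2.89 to 26.6) lay below all 4 WAT arrays (101 to 297), with the BAT mean under the level for testing. The order of the group means was fed WAT, fasted WAT, fed BAT, fasted BAT and liver. Single arrays of fasted WAT (101 to 297) and fed BAT (17.7 to 118) overlapped, as did those of fed and fasted BAT.

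Adiponectin, a hormone made almost solely by fat cells, showed no called change with fasting in either fat. Its probe set 1381997_at read 4557 to 5371 in fed and 4258 to 5018 in fasted BAT (4927 ± 385 and 4768 ± 350, SD, n = 4). In WAT it read 5109 to 6948 in fed and 5953 to 7255 in fasted animals (6188 ± 814 and 6558 ± 683). The groups overlapped in both fats, and the differences were -0.05 ± 0.09 in BAT (95% interval -0.24 to 0.14, adjusted p = 0.756) and 0.09 ± 0.12 in WAT (-0.18 to 0.35, adjusted p = 0.682). These intervals bound the size of a change on this scale, and compression of such bright signals was not tested. Liver arrays read 1.29 to 15.2, below the level tested there. Over the 24 arrays BAT and WAT did not differ by the test (fed -0.32 ± 0.39, adjusted p = 0.554; fasted -0.46 ± 0.39, adjusted p = 0.373), in a fit that also holds the dim liver arrays. In a fit to the arrays of the groups compared alone, Adipoq was lower in BAT than in WAT, fed (-0.32 ± 0.12, adjusted p = 0.0474) and fasted (-0.46 ± 0.1, adjusted p = 0.00432).

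Adipsin (Cfd, 1388602_at) was among the brightest signals in both fats and passed the fasting test in no tissue. It read 6398 to 8237 in fed BAT, 6427 to 7630 in fasted BAT, 6091 to 8710 in fed WAT and 7019 to 9352 in fasted WAT. In liver it read 141 to 182 fed and 133 to 258 fasted. The differences were 0.04 ± 0.1 in BAT (adjusted p = 0.824), 0.09 ± 0.14 in WAT (adjusted p = 0.716) and 0.3 ± 0.19 in liver (adjusted p = 0.354), and fed and fasted arrays overlapped in each. In the fed rats liver minus WAT was -5.55 ± 0.15 and liver minus BAT was -5.47 ± 0.15 (adjusted p = 2.12e-19 and 2.27e-19). BAT and WAT did not pass the test (fed -0.08 ± 0.15), but with quantile normalization BAT was lower than WAT in both states (-0.57 ± 0.12 in each).

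Rbp4 (1371762_at) was bright in all 3 tissues and, unlike Lep, Adipoq and Cfd, had its highest signal in liver. In BAT the fed arrays read 5669, 5966, 6847 and 5974 in animals 1, 2, 4 and 5. The fasted BAT arrays read 5523, 5280, 4332 and 4373 in animals 6, 8, 9 and 10. The groups did not overlap, although the gap between the lowest fed and the highest fasted array was small. Rbp4 fell in BAT by the test (-0.33 ± 0.1, adjusted p = 0.0459), at the edge of the threshold. The call ended on leaving out any animal but fasted animal 6, with adjusted p from 0.0536 to 0.119, with median centring (-0.39 ± 0.18, adjusted p = 0.166), with no filter (0.103), on the second scan day alone (-0.21, 0.381) and with the muscle level as a covariate (-0.26 ± 0.18, 0.575). In WAT the arrays read 4721 to 5877 fed and 4003 to 4846 fasted, a difference of -0.29 ± 0.1 that missed the threshold (adjusted p = 0.0802) and passed without fed animal 1 (-0.36, adjusted p = 0.0273) and with quantile normalization (-0.3, 0.0223). In liver, 7218 to 8539 fed and 7107 to 9300 fasted, the difference was 0.07 ± 0.1 (adjusted p = 0.7). Fed liver exceeded fed WAT by 0.54 ± 0.1 (adjusted p = 7.55e-05) and fed BAT by 0.36 ± 0.1 (adjusted p = 0.00335), the first of which was 0.11 ± 0.06 and no longer called with quantile normalization (adjusted p = 0.135). Fasted liver exceeded fasted WAT by 0.9 ± 0.1 and fasted BAT by 0.77 ± 0.1.

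**Figure D2:**
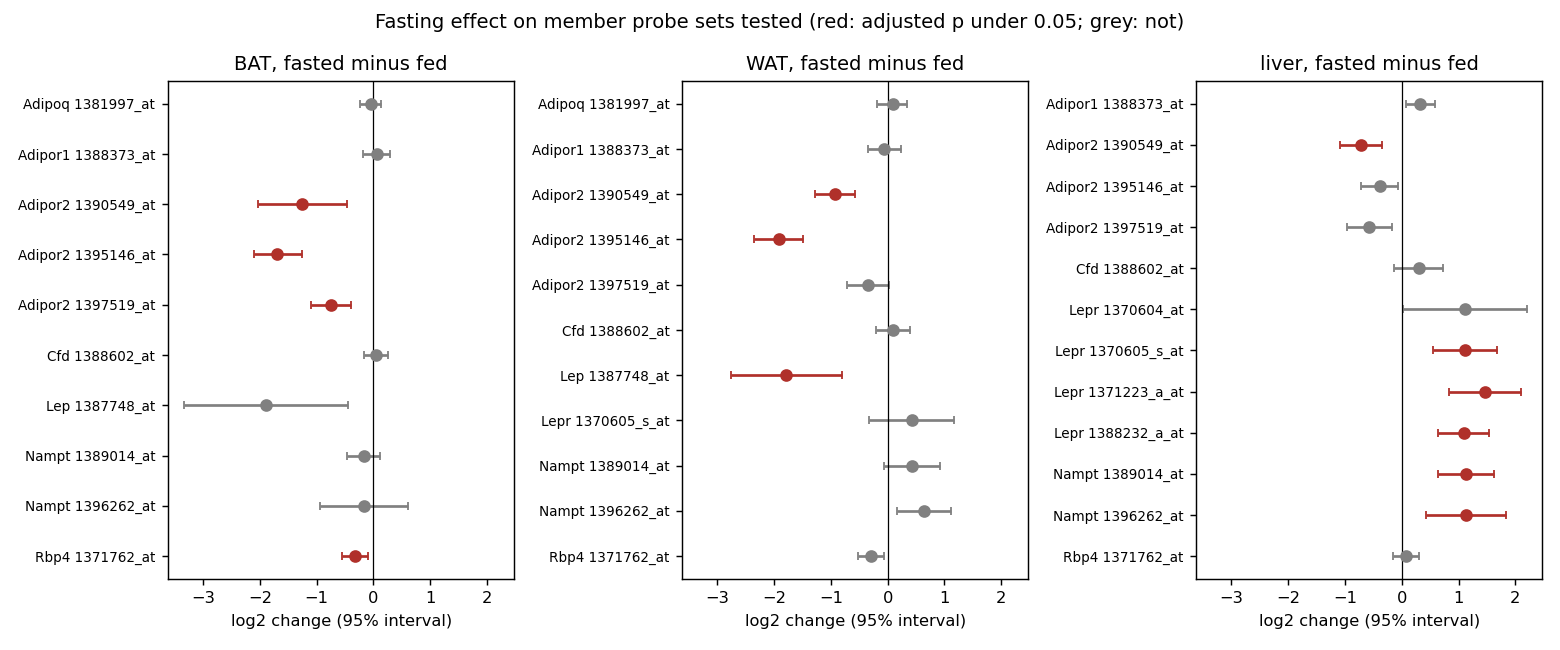
Log2 change with fasting (horizontal axis, point and 95% interval) of each member probe set tested in BAT (10), WAT (11) and liver (12); red points have adjusted p under 0.05. The called changes in both fats lie below 0, and in liver the Lepr and Nampt probe sets lie above 0.

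By count, 4 of 10 member probe sets were called in BAT (2 of 7 genes), where 19.9% of all probe sets tested were called, and all 4 fell, where 9.69% of all fell. In WAT 3 of 11 were called (2 of 8 genes), against 14.6% of all, and all 3 fell, against 7.34%. In liver 6 of 12 were called (3 of 6 genes), against 13.9% of all: 5 rose, against 7.84%, and 1 fell, against 6.07%. Fed and fasted arrays did not overlap for 4 of 10 in BAT, 4 of 11 in WAT and 7 of 12 in liver, against 24.5%, 20.8% and 20.2% of all probe sets tested. These counts rest on 3 Adipor2 and up to 4 Lepr probe sets that share a gene. In a fit with 1 probe set per gene, 2 of 7 genes fell in BAT and 1 of 8 in WAT, and 0 rose. Of all genes, taken at 1 probe set each in the main fit, 11.4% fell in BAT and 8.6% in WAT. In liver 2 of 6 rose and 1 fell, where 8.41% of all genes rose and 7.74% fell. Counts over so few genes are a description. In BAT 0 of the 10 were called by limma with the muscle level as a covariate (1 at an unadjusted p under 0.05), and 2 to 4 were called on leaving out 1 animal. In WAT 2 of 11 were called without fasted animals 8 and 10 and 2 to 4 on leaving out 1 animal, and in liver 5 to 7 of 12.

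Adipor2, the receptor linked in liver to fatty acid oxidation, fell with fasting in both fats, and the largest change was at probe set 1395146_at. In BAT this probe set read 212, 301, 245 and 207 in fed animals 1, 2, 4 and 5. The fasted BAT arrays read 70.8, 53.6, 91.2 and 80.9 in animals 6, 8, 9 and 10. Every fasted array was below every fed array by a wide gap. The means were 241 ± 43.2 and 74.1 ± 16 (SD, n = 4), a fall of -1.69 ± 0.19 (adjusted p = 3.23e-04), or 3.22-fold. In WAT the fed arrays read 192, 323, 222 and 295 and the fasted arrays 66, 59.4, 56.8 and 82 in the same animal order. The WAT groups were as far apart as those of BAT, 258 ± 61.1 against 66.1 ± 11.3, a fall of -1.92 ± 0.19 (adjusted p = 2.31e-04), or 3.78-fold. In liver the arrays read 233, 293, 224 and 321 fed, and 186, 205, 221 and 197 fasted. The liver groups did not overlap but lay close, and the difference of -0.39 ± 0.15 missed the threshold (adjusted p = 0.111), while it passed with the scan day blocked (adjusted p = 0.0369).

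The other 2 Adipor2 probe sets moved less. Probe set 1390549_at read 136 to 304 in fed and 49.9 to 133 in fasted BAT (-1.25 ± 0.36, adjusted p = 0.0326), and 162 to 219 in fed and 86.5 to 124 in fasted WAT (-0.93 ± 0.16, adjusted p = 0.00403). In liver it read 172 to 236 fed and 98 to 144 fasted and fell by 0.72 ± 0.17 on the log2 scale (adjusted p = 0.0161). The groups were apart in all 3 tissues, but the BAT call ended without fed animal 2 (adjusted p = 0.0874), fed animal 5 (0.0663), fasted animal 6 (0.0833) or fasted animal 8 (0.0821). In WAT the 3 arrays of the first scan day gave no call by themselves (-0.83, adjusted p = 0.0552), and in liver the call ended within the second scan day (-0.55, 0.208) and when all 24 arrays shared 1 spread (0.0654). The brightest probe set, 1397519_at, read 650 to 922 in fed and 368 to 584 in fasted BAT, a fall of -0.74 ± 0.16 (adjusted p = 0.009) that was -0.5 and no longer called on the second scan day alone (adjusted p = 0.0543). In WAT it read 622 to 851 fed and 408 to 659 fasted, with overlap, a difference of -0.35 ± 0.17 (adjusted p = 0.194). In liver it read 377 to 631 fed and 287 to 417 fasted, also with overlap, a difference of -0.57 ± 0.18 (adjusted p = 0.0603), which passed without fed animal 1 (-0.74 ± 0.15, adjusted p = 0.0124) and under 5 other settings, among them median centring (-0.64, adjusted p = 0.0357) and the scan day block (0.0189). The 3 probe sets thus agreed in sign in all 3 tissues and differed in size. Which transcripts each one reads was not analysed here.

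**Figure D3:**
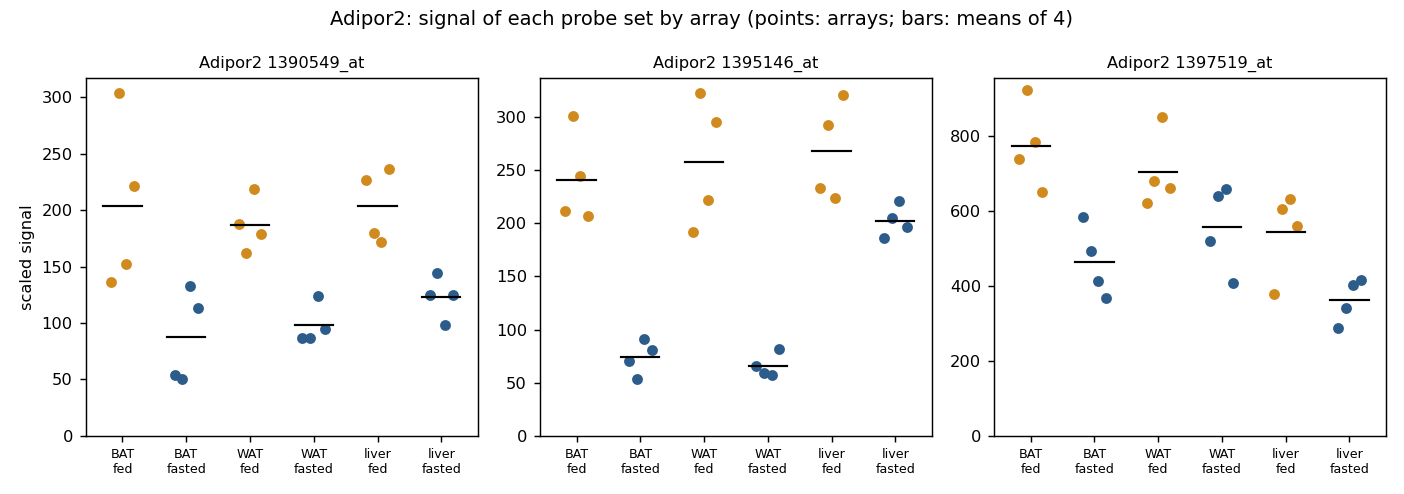
Scaled signal (linear axis from 0) of the 3 Adipor2 probe sets in the 6 groups; each point is 1 array, fed in orange and fasted in blue, and bars are means of 4. At 1395146_at fasted arrays of both fats lie at 53.6 to 91.2, below the fed arrays of all tissues (192 to 323) and below fasted liver (186 to 221).

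The fall at 1395146_at was larger in fat than in liver by the test of the difference. BAT minus liver was -1.3 ± 0.26 (adjusted p = 0.00221) and WAT minus liver was -1.53 ± 0.26 (adjusted p = 5.13e-04), while BAT minus WAT was 0.23 ± 0.26 (95% interval -0.3 to 0.77, adjusted p = 0.891). Fed levels did not differ by the test between the tissues (BAT against WAT -0.08 ± 0.18, liver against WAT 0.07 ± 0.18, liver against BAT 0.15 ± 0.18). With each array centred on its median, fed liver was instead above WAT (0.47 ± 0.19, adjusted p = 0.037) and above BAT (0.5 ± 0.19, adjusted p = 0.0246). In the fasted rats liver was above WAT by 1.6 ± 0.18 (adjusted p = 5.52e-08) and above BAT by 1.45 ± 0.18 (adjusted p = 2.53e-07). At the brightest probe set, 1397519_at, fasted liver was instead below WAT (-0.61 ± 0.18, adjusted p = 0.00591) and not called against BAT (-0.35 ± 0.18). Fed liver was below BAT there (-0.53 ± 0.18, adjusted p = 0.015). Both of these calls ended with median centring (-0.16 and -0.17). At 1390549_at fasted liver was not called against WAT (0.33 ± 0.27) or BAT (0.6 ± 0.27). The difference of the fasting effect between tissues was not called for 1390549_at (BAT minus liver -0.53 ± 0.37, WAT minus liver -0.21 ± 0.37) or 1397519_at (-0.17 ± 0.26 and 0.22 ± 0.26). Over all members, 2 of 11 probe sets were called for BAT minus liver, 1 of 11 for WAT minus liver and 0 of 11 for BAT minus WAT by limma, where 8.05%, 5.79% and 0.993% of all probe sets were called. For BAT minus WAT 0 of the 11 had an unadjusted p under 0.05.

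Muscle marker levels moved with feeding in BAT, and some arrays had a muscle level unlike the rest of their feeding group. Fed animal 5 had a muscle level of 11.43 in BAT, close to the fasted arrays at 11.79 to 12.24, and read 207 at Adipor2 1395146_at against 53.6 to 91.2 in the fasted arrays. In WAT, fasted animals 6 and 9 had muscle levels of 4.36 and 3.86, near the fed arrays, and read 66 and 56.8. Without fasted animals 8 and 10 the WAT change at this probe set was -2.01 ± 0.23 (adjusted p = 0.00274). With the muscle level as a covariate the BAT changes of the 3 probe sets were -1.39 ± 0.31 at 1395146_at (adjusted p = 0.0604), -1.29 ± 0.61 at 1390549_at (0.378) and -0.5 ± 0.26 at 1397519_at (0.432), so that none was called. For Lep, whose covariate values are given above, fed animal 5 read 89.9 in BAT against 2.89 to 26.6 in the fasted arrays. Only fed animal 5 had a BAT muscle level near those of the fasted arrays. Feeding and muscle level therefore nearly coincide in BAT, and the covariate fit cannot separate them. Whether muscle content caused any of these changes was not tested.

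**Figure D4:**
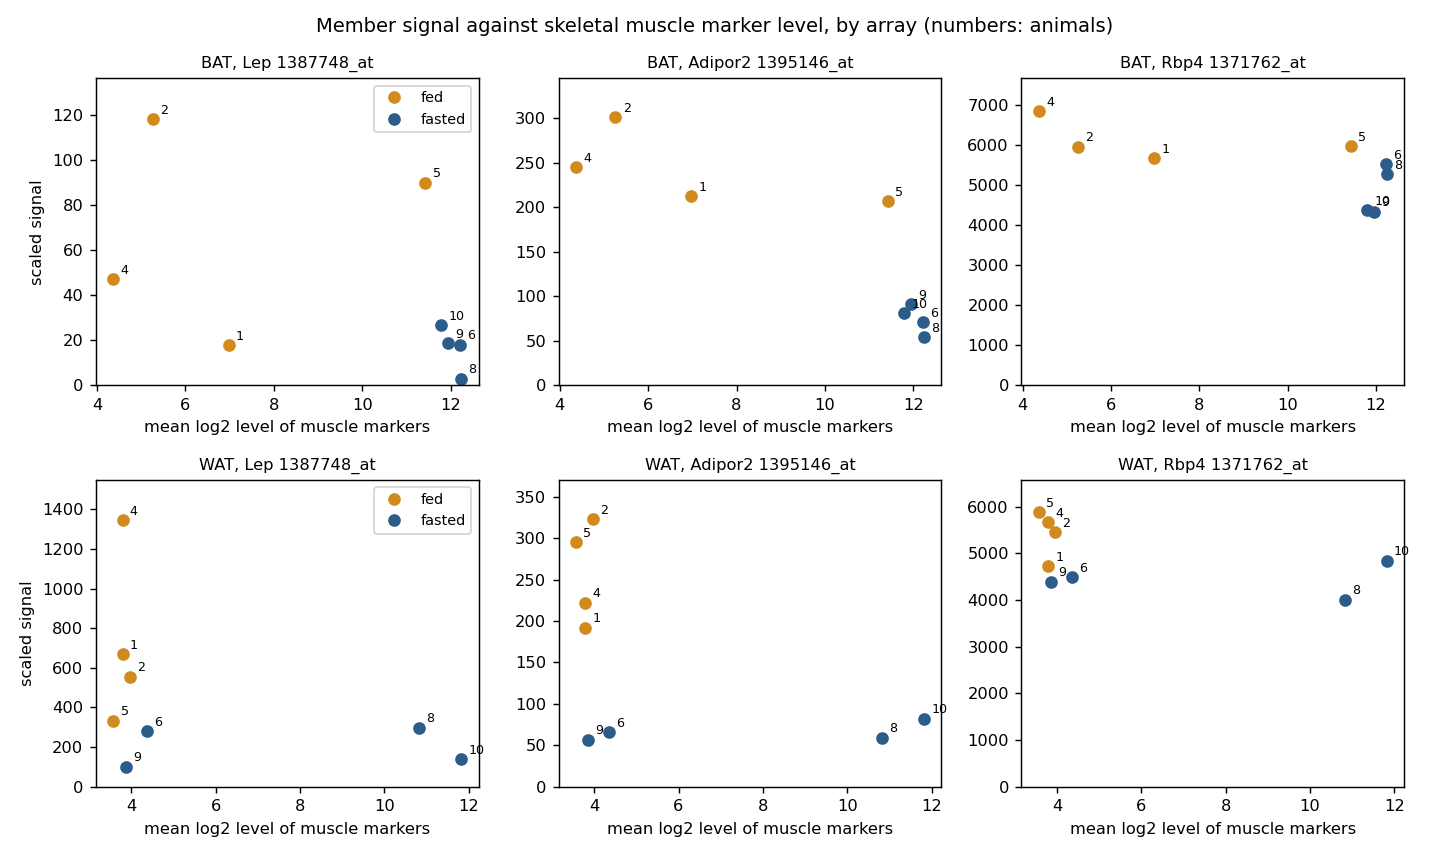
Scaled signal (vertical axis, from 0) of Lep, Adipor2 1395146_at and Rbp4 against the muscle marker level (mean log2, horizontal axis) on each BAT and WAT array; numbers are animals, orange fed and blue fasted. At Adipor2, fed animal 5 in BAT (muscle level 11.43) lies with the fed arrays and fasted animals 6 and 9 in WAT (4.36 and 3.86) with the fasted arrays.

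Adipor1 (1388373_at), the more widely expressed adiponectin receptor, was not called in any tissue. It read 884 to 1004 in fed and 890 to 1111 in fasted BAT (0.06 ± 0.1, adjusted p = 0.755), and 749 to 842 in fed and 618 to 929 in fasted WAT (-0.06 ± 0.13, adjusted p = 0.819). In liver the fed arrays, 495 to 621, lay below the fasted arrays, 643 to 712, a difference of 0.33 ± 0.11 (adjusted p = 0.0816). That difference passed without fed animal 4 (0.4 ± 0.12, adjusted p = 0.0454), with the scan day blocked (0.0336) and when all 24 arrays shared 1 spread (0.0422). In the fed rats the order was BAT, WAT, liver: liver lay below WAT (-0.58 ± 0.11, adjusted p = 7.77e-05) and below BAT (-0.83 ± 0.11, adjusted p = 5.49e-07), while BAT and WAT did not differ by the test (0.25 ± 0.11, adjusted p = 0.0844). With each array centred on its median, fed liver against fed WAT was -0.18 ± 0.12 and no longer called (adjusted p = 0.216). In the fasted rats BAT was above WAT (0.36 ± 0.11, adjusted p = 0.0118), a call that ended without fasted animal 9 (0.21 ± 0.11, adjusted p = 0.171) or animal 10 (0.32 ± 0.13, adjusted p = 0.0596), with quantile normalization (0.29, 0.0633) and in a fit to these groups alone (0.36 ± 0.14, 0.0637).

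The leptin receptor was a liver signal on these arrays, and it rose there with fasting. Its brightest probe set, 1370605_s_at, read 91.2, 88.4, 92.4 and 58.1 in liver of fed animals 1, 2, 4 and 5. The fasted liver arrays read 195, 279, 115 and 157 in animals 6, 8, 9 and 10. All fasted arrays lay above all fed arrays, the nearest being fasted animal 9. The means were 82.5 ± 16.4 and 187 ± 69.6 (SD, n = 4), a rise of 1.11 ± 0.26 (adjusted p = 0.0152), or 2.16-fold. Probe set 1388232_a_at read 46 to 54.3 fed and 78.6 to 149 fasted (1.09 ± 0.21, adjusted p = 0.00543). Probe set 1371223_a_at read 17.2 to 38 fed and 47.2 to 105 fasted (1.47 ± 0.29, adjusted p = 0.00659). These 3 calls held on leaving out each animal in turn and ended within the 4 arrays of the first scan day, where the changes were 0.89, 0.74 and 1.18 (adjusted p from 0.0564 to 0.0771). On the second scan day alone the call of 1371223_a_at also ended (1.76, adjusted p = 0.0562). Probe set 1370604_at read 2.95 to 26.5 fed and 18.5 to 42.1 fasted, a difference of 1.12 ± 0.49 that missed the threshold (adjusted p = 0.164). Which transcripts each Lepr probe set reads was not analysed here.

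The other Lepr probe sets, 1369739_at, 1371222_at and 1388260_a_at, read 0.302 to 22.3 over the 24 arrays and were tested in no tissue. In BAT no Lepr probe set reached the level for testing. In WAT 1370605_s_at did, at 13.2 to 20.9 fed and 12.1 to 39.6 fasted, with overlap and a difference of 0.43 ± 0.34 (adjusted p = 0.446). At this probe set the means were 16.4 ± 8.06 and 11.9 ± 6.75 in fed and fasted BAT and 16.4 ± 3.74 and 24.1 ± 11.5 in fed and fasted WAT, against 82.5 and 187 in liver. Every liver array (58.1 to 279) read above every fat array (4.84 to 39.6). It passed the level for comparisons between tissues through its liver signal, so these levels are given without a test.

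**Figure D5:**
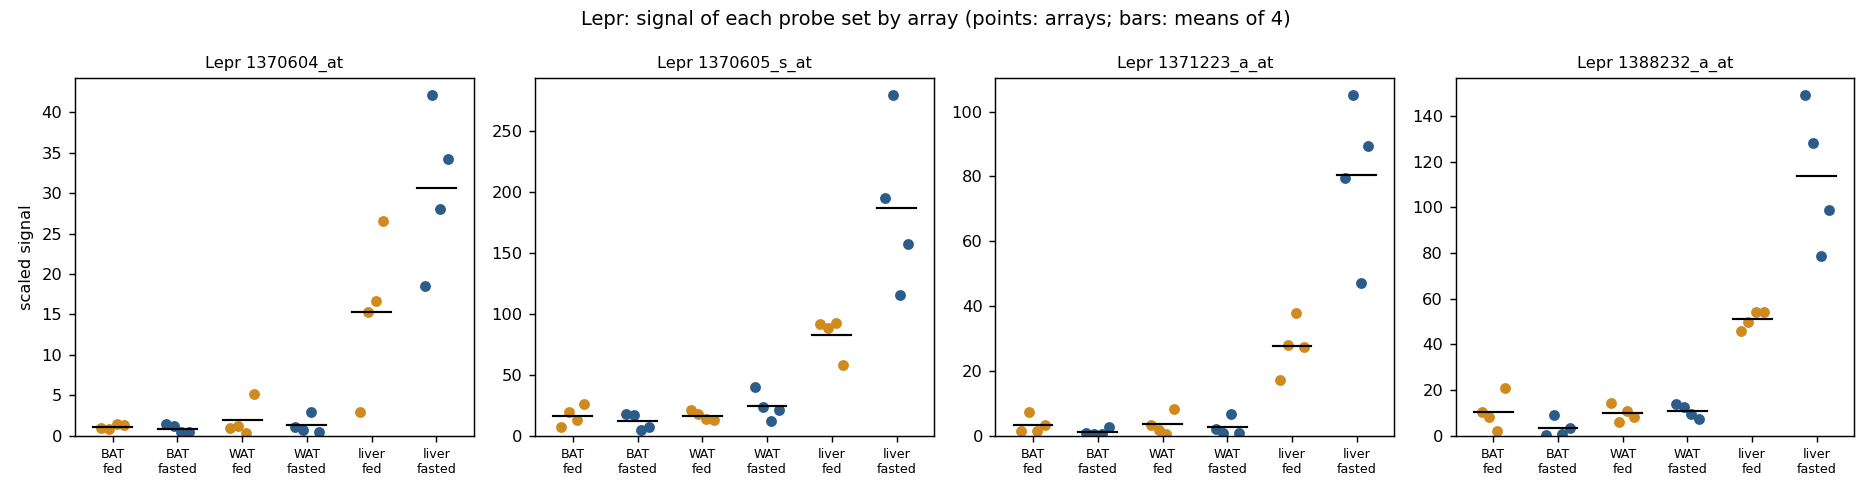
Scaled signal (linear axis from 0, with its own range in each panel) of the 4 Lepr probe sets tested in liver, in the 6 groups; each point is 1 array, fed in orange and fasted in blue, and bars are means of 4. Fasted liver lies above fed liver without overlap at 3 of them and with overlap at 1370604_at.

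Nampt, the enzyme that makes nicotinamide mononucleotide, rose with fasting in liver. Its brighter probe set, 1389014_at, read 512, 491, 606 and 693 in fed animals 1, 2, 4 and 5. The fasted liver arrays read 762, 1234, 1639 and 1588 in animals 6, 8, 9 and 10. The groups did not overlap, with fasted animal 6 nearest to the fed arrays. The means were 575 ± 93.1 and 1306 ± 405 (SD, n = 4), a rise of 1.13 ± 0.22 (adjusted p = 0.00678), or 2.19-fold. This call ended on the second scan day alone (0.8 ± 0.24, adjusted p = 0.116). The dimmer probe set 1396262_at read 35.9 to 107 fed and 99.4 to 214 fasted, with overlap (1.13 ± 0.32, adjusted p = 0.0356). Its call ended without fed animal 1 (0.83, adjusted p = 0.0643), fed animal 2 (0.0743) or fasted animals 8 (0.0661), 9 (0.097) or 10 (0.0873), with quantile normalization (0.96, 0.0543) and on the second scan day alone (1.11, 0.156).

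In fat no Nampt probe set passed the fasting test. In BAT 1389014_at read 1078 to 1515 fed and 1019 to 1202 fasted (-0.17 ± 0.13, adjusted p = 0.391), and in WAT 580 to 1102 fed and 733 to 1324 fasted (0.43 ± 0.23, adjusted p = 0.242). The dimmer 1396262_at read 99.4 to 200 fed and 67.4 to 184 fasted in BAT, with overlap (-0.17 ± 0.35, adjusted p = 0.788). In WAT 1396262_at read 89.5 to 127 fed and 129 to 251 fasted, without overlap (0.64 ± 0.21, adjusted p = 0.0715). The fasting change at 1389014_at was lower in BAT than in liver by -1.3 ± 0.31 (adjusted p = 0.00896), and WAT minus liver was -0.7 ± 0.31 (adjusted p = 0.213). In the fed rats BAT was above WAT (0.71 ± 0.22, adjusted p = 0.0128), a call that ended without fed animal 1 (adjusted p = 0.0574), and above liver, since liver minus BAT was -1.14 ± 0.22 (adjusted p = 8.11e-05). Fed liver against fed WAT was -0.43 ± 0.22 (adjusted p = 0.0984; 0.0478 with the animal number as a block). In the fasted rats the 3 tissues, at 1118 ± 75.4, 1057 ± 259 and 1306 ± 405, did not differ by the test. With each array centred on its median, fasted liver was above fasted WAT (0.73 ± 0.22, adjusted p = 0.00742). For 1396262_at the fasting change in BAT minus liver was -1.3 ± 0.47 and not called (adjusted p = 0.092). It passed with the scan day blocked (0.00919). In the fed rats its BAT minus WAT was 0.35 ± 0.33 (adjusted p = 0.441) and its liver minus BAT -0.96 ± 0.33 (adjusted p = 0.016). That last call ended without fed animal 1 or 2 and with median centring.

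Some markers of other cells were also called with fasting in liver, beside the rises of Lepr and Nampt. With 1 probe set per gene, 8.41% of all genes rose in liver, 12.4% in BAT and 7.89% in WAT. Of 10 macrophage markers 4 rose and none fell, and their summed signal went from 5030 to 5496 in the fed to 5906 to 7164 in the fasted livers, with group mean log2 levels of 8.27 and 8.57. The mean signals of Lyz2 (1104 fed, 925 fasted) and Itgam (18.7 fed, 11.7 fasted) in that list were lower in fasted liver. Of 5 endothelial markers 1 rose (summed 1317 to 1601 fed, 1851 to 2040 fasted), a count too small to set against the share of all genes. Of 4 stromal markers tested none was called by limma, and 3 had an unadjusted p under 0.05 (5 markers summed, 1947 to 2763 fed, 2825 to 3226 fasted). The 8 hepatocyte markers gave 0 calls, with 2 at an unadjusted p under 0.05. In the fats, 5 of 9 macrophage markers rose in BAT (10 summed, 2623 to 4248 fed, 3608 to 5165 fasted) and 3 of 10 in WAT (5317 to 6674 fed, 7211 to 9959 fasted). Of 5 endothelial markers in BAT 1 rose and 1 fell. Of 4 blood markers in BAT 0 were called by limma and 4 had an unadjusted p under 0.05 (summed 4028 to 8437 fed, 2457 to 4189 fasted). The part of these cells in the member values was not tested.

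Across tissues, the number of member probe sets called of 11 was 2 for fed BAT against WAT (36.6% of all were called), 6 for fed liver against WAT (57.7%) and 9 for fed liver against BAT (60.9%). In the fasted rats it was 2 for BAT against WAT (40.7%), 7 for liver against WAT (57.2%) and 7 for liver against BAT (60.5%). Of the 6 in fed liver against WAT, Lepr and Rbp4 were higher in liver, and Lep, Adipoq, Cfd and Adipor1 were lower. Lep and Adipoq passed the level for testing through fat alone and Lepr through liver alone, so they had to differ here and the counts are a description. Liver signals of Lep and Adipoq are at the dim end of the array, so no size is given for their difference from fat. The median difference of all probe sets was -0.3 for fed liver against WAT and 0.09 with each array centred on its median, and small liver differences changed with the scaling as given above for Rbp4, Adipor1, Adipor2 and Nampt. Scan days were not shared between tissues, so scan day and tissue cannot be told apart here.

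Genes of the same pathways, listed with earlier results of these data known, were counted with 1 probe set per gene. Counted in that way, 12.4% of all genes rose and 11.4% fell in BAT, 7.89% rose and 8.6% fell in WAT, and 8.41% rose and 7.74% fell in liver, with medians of 0.01, 0.03 and 0.03. Several lists lay near these shares, and a count near them is no result about a list. Of 30 other secreted factors of fat tested in BAT, 3 rose and 4 fell (median 0.09). Cxcl12, a chemokine for stem and immune cells, went from 1397 ± 277 to 588 ± 45.2 (-1.23 ± 0.14, adjusted p = 3.46e-04) and also fell in liver (-0.66 ± 0.14), and the monocyte chemokine Ccl2 from 284 ± 84.2 to 103 ± 27.4 (-1.44 ± 0.23). In WAT 4 of 33 rose and 5 fell (median -0.03). The peptide hormone gene Apln fell there from 205 ± 29.8 to 61.4 ± 23.2 (-1.77 ± 0.24, adjusted p = 0.00107), as it also fell in BAT (-0.88 ± 0.23), and Fgf21, a hormone of the fasting response known mainly from liver, from 55.8 ± 9.45 to 17.8 ± 5.97 (-1.58 ± 0.25). The fasted Fgf21 mean lay just below the level for testing in WAT (18.1). In liver 5 of 26 rose and 2 fell (median 0.15). Omd, which encodes a small proteoglycan, rose in all 3 tissues (1.24 ± 0.23 in BAT, 1.26 ± 0.19 in WAT and 1.32 ± 0.16 in liver). Among 13 other receptors and partners tested in BAT, 1 rose: Cdh13, the T-cadherin that binds adiponectin multimers, by 0.63 ± 0.16. In WAT 1 of 13 rose and 1 fell, the latter being Cmklr1, the chemerin receptor (-1.33 ± 0.27, adjusted p = 0.00988). In liver 1 of 11 rose, the insulin receptor Insr (1.62 ± 0.33), and 1 fell.

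For leptin receptor signalling, against the same shares of all genes, 3 of 16 genes rose and 1 fell in BAT (median 0.29), 1 of 16 rose in WAT (0.04), and 2 of 17 rose and 1 fell in liver (0.03). Irs2, an adaptor of insulin and leptin signalling, rose in all 3 tissues, by 2.66 ± 0.25 in BAT, 1.61 ± 0.27 in WAT and 2.02 ± 0.18 in liver. In liver the feedback inhibitor gene Cish fell (-1.15 ± 0.29) and its relative Socs2 rose (1.02 ± 0.29). For adiponectin assembly and signalling, 6 of 20 rose and 1 fell in BAT (median 0.15), 3 of 18 rose and 1 fell in WAT (-0.01), and 4 of 20 rose and 2 fell in liver (0.06). The catalytic subunits of AMP-activated kinase went opposite ways in WAT, with a change of 1.12 ± 0.17 for Prkaa1 and -1.3 ± 0.26 for Prkaa2. In liver both rose, by 0.71 ± 0.19 and 0.74 ± 0.13. The ceramidase gene Acer2 rose in BAT (0.94 ± 0.25), WAT (1.1 ± 0.18) and liver (1.18 ± 0.2).

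Among transcription factors known to act on adipokine genes, again beside those shares, 4 of 21 rose and 2 fell in BAT (median -0.03), 3 of 21 rose and 4 fell in WAT (0.02), and 2 of 18 rose and 1 fell in liver (0.15). Klf15 went from 88.9 ± 45.7 to 887 ± 90.9 in BAT (3.43 ± 0.31) and from 348 ± 103 to 637 ± 124 in WAT (0.9 ± 0.22), a difference between the fats of 2.54 ± 0.4 (adjusted p = 0.00144). Cebpa, which encodes a C/EBP factor, fell in WAT from 1925 ± 341 to 1263 ± 211 (-0.6 ± 0.15, adjusted p = 0.0272). Cebpb of the same family also fell there (-0.73 ± 0.19, adjusted p = 0.0281). A link of either factor to the leptin change was not tested. Of NAD genes, 1 of 19 rose and 2 fell in BAT, 0 of 17 were called in WAT by limma (5 at an unadjusted p under 0.05) and 1 of 22 rose and 2 fell in liver, with medians of 0.14, 0.19 and -0.27. In liver, where Nampt rose, Qprt, an enzyme of NAD synthesis from tryptophan, changed by -0.6 ± 0.16, and Haao, of the same route, by -0.48 ± 0.13. In BAT the mitochondrial sirtuin Sirt5 went from 907 ± 17 to 422 ± 40.6 (-1.1 ± 0.1, adjusted p = 8.00e-05).

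Of retinol genes, the pathway of Rbp4, 2 of 19 rose and 4 fell in BAT (median -0.02), 4 of 20 rose and none fell in WAT (0.08), and 2 of 19 rose and 3 fell in liver (0.14). Rbp7, a cellular retinol binding protein of fat, moved in opposite directions in the 2 fats, from 1266 ± 137 to 632 ± 81 in BAT (-1 ± 0.12) and from 1811 ± 324 to 3729 ± 276 in WAT (1.06 ± 0.13). The difference between them was -2.06 ± 0.49 (adjusted p = 0.0374). Cyp26b1, which breaks down retinoic acid, rose in WAT by 1.53 ± 0.21. In BAT it went from 16.6 ± 1.65 to 36.4 ± 9.56 (1.02 ± 0.26), with the fed mean below the level for testing (17.9). The retinoic acid receptor gene Rarb fell in BAT (-0.95 ± 0.17) and liver (-1.24 ± 0.14). Of alternative complement genes, the pathway of Cfd, 2 of 8 rose in BAT, 0 of 8 were called in WAT by limma (1 at an unadjusted p under 0.05) and 1 of 11 rose in liver, with medians of 0.22, 0.02 and 0.32. Cd55, which protects cells from complement, rose in BAT from 32.2 ± 16.5 to 80.8 ± 6.99 (1.4 ± 0.31). Each of these BAT and WAT values stands beside the muscle marker levels given above, and the part of muscle in these listed genes was not tested.

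The genes whose signals followed each member most closely over the 24 arrays are given as a description; the 3 tissues set most of these correlations. Lep was followed by Dmrt2 (Pearson r = 0.965), Usp12 (0.961) and Sorl1 (0.95). Dmrt2 had group means of 554 in fed and 189 in fasted WAT, 22.2 and 12.5 in BAT, and 0.791 and 0.636 in liver. Adipoq was followed by Aoc3 (0.997), Prkar2b (0.994) and Lpl (0.993), and Cfd by Prkar2b (0.996), Lpl (0.996) and Pparg (0.995), which are all bright in both fats and dim in liver. Rbp4 was followed by Sc5d (0.934), Txndc17 (0.933) and Pecr (0.92). Adipor1 was followed by Mrrf (0.952), Pyurf (0.92) and Pigq (0.918). Adipor2 1397519_at was followed by C8h11orf54 (0.852), with BAT means of 2469 fed and 1033 fasted, and by Bccip and Vcf2 (0.832 each). Nampt 1389014_at was followed by Hsdl2 (0.81), at 816 in fed and 2532 in fasted liver, Cdo1 (0.791) and Ephx2 (0.785). Lepr 1370605_s_at was followed by Tlcd4 (0.948), at 303 in fed and 723 in fasted liver, Cyp2j4 (0.942) and Nxpe4 (0.941).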

How the data were processed

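The authors deposited 1 linear MAS5 intensity per probe set and array, per the submitters' processing notes; the MAS5 version, detection calls and saturation flags were not used here. Labelled cRNA came from 2 µg of total RNA, per the labels' protocols. Intensities were rescaled so that the 2% trimmed mean, 93.4 to 206 as deposited, was 129 on every array, and log2(signal + 1.9) was taken, the pseudocount being the 10th percentile of signals. The 57 control probe sets were left out. Probe sets were tested with limma 3.58.1 in R 4.3.3 (trend, two-sided, Benjamini-Hochberg, called under 0.05): fasting effects on the 8 arrays of a tissue, other comparisons on 24 arrays with 6 group means. Arrays have no read depth, and their number limits the precision.

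Members, lists and tests were chosen with earlier results of these data known. Every member probe set is reported. Up to 4 called genes per list and comparison, in order of p, were eligible for naming, as were the 3 genes most correlated with each member. An animal number was read as 1 animal across tissues, which the labels do not state. The deviations of 24 same-number pairs of arrays correlated at r = 0.02 to 0.2, and 21 pairs were the best match of their number. Apart from animal 9 of WAT, each number was also scanned on the same day in order, first or second, in every tissue. These matches therefore cannot tell a shared animal from a shared scan order. Fits were tested on simulated data. Alternatives covered scaling, pseudocount, filter, 1 probe set per gene, each animal left out, the animal and scan day as blocks, and muscle level. Promoters were matched by symbol in RefSeq tables for 8 of 9 genes; Nampt had no entry.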

Additional observations from a re-analysis of the deposited data

Results flagged for a closer look

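Of 102 groups of 4 arrays checked, 4 held an array far from the rest, where chance alone flags about 1 in 20 groups. Cfd in fasted BAT of animal 10 read 6427 against 7460 to 7630 in the other 3 animals (gap 0.868 of the group's range). Lepr 1370605_s_at in fed liver of animal 5 read 58.1 against 88.4 to 92.4 (0.904). Lepr 1369739_at in fed BAT of animal 4 read 5.2 against 0.817 to 1.01 (0.93), and Lepr 1371222_at in fed BAT of animal 1 read 13.1 against 0.354 to 0.957 (0.875), both at signals below the level tested.

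Fasting effects differed between tissues at 3 member results. Nampt 1389014_at differed by -1.3 between BAT and liver (adjusted p = 0.00896), with 1274 fed and 1118 fasted in BAT against 575 and 1306 in liver. Adipor2 1395146_at differed by -1.3 between BAT and liver (adjusted p = 0.00221) and by -1.53 between WAT and liver (adjusted p = 5.13e-04), with means of 241 and 74.1 in BAT, 258 and 66.1 in WAT and 268 and 203 in liver. The cause of these differences was not tested.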

How the results depend on the processing

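Of 1829 alternative values for 132 member results, 1662 kept the direction and the side of the threshold, 57 lost the call, 46 gained one, 62 in 27 results turned sign while uncalled under both settings, and 2 turned sign with a call: Rbp4 in BAT against WAT was 0.17 fed and 0.13 fasted, uncalled, but with quantile normalization -0.31 (adjusted p = 4.01e-04) and -0.27 (adjusted p = 0.00125). Probe sets called for fasting in BAT (3704) came to 1844 on scan day 1 alone and 294 with the muscle level as a covariate. In WAT (2713) they came to 1382 on scan day 1, 361 on scan day 2, 1571 with the muscle covariate, 1541 without fasted animals 8 and 10 (an alternative chosen after seeing the data) and 1643 to 3119 without 1 animal, the lowest being without fed animals 5 and 2 (1643 and 1771). In liver (2592) they came to 4086 with scan day as a block and 701 on scan day 2. Scan day as a block drops fasted animal 9 of WAT, which was scanned alone. BAT minus WAT (185) came to 110 with median centring, 406 with the scan day block and 88 to 192 without 1 animal. BAT minus liver (1500) came to 2882 with the scan day block, 808 with the muscle covariate and 914 to 1335 without 1 animal. WAT minus liver (1078) came to 1849 with the scan day block and 712 to 1002 without 1 animal. With 1 probe set per gene, where fewer features are tested, the tissue counts were 4524 of 6809 (fed BAT against WAT), 6612 of 10754 (fed liver against WAT), 6980 of 11344 (fed liver against BAT), 4933 of 7579, 6652 of 10646 and 7049 of 11273 (the same in fasted rats). Where no other cause is named, the cause was not tested. With the animal number as a replicate block, counts were 201, 1686 and 1240 for the 3 differences between tissues, and the calls of members changed only for Nampt, as given in the report, and for 2 Lepr comparisons in which BAT was below the level for testing. Median centring moved the median WAT change from 0.04 to -0.07 and the split of higher to lower calls from 1346 and 1367 to 727 and 1552 in WAT, from 1461 and 1131 to 1047 and 1295 in liver and from 91 and 94 to 66 and 44 for BAT minus WAT. For fed liver the split went from 3484 and 7270 to 5630 and 4461 against WAT and from 3944 and 7400 to 5711 and 4871 against BAT; for fasted liver from 3672 and 6974 to 6328 and 4090 and from 4347 and 6926 to 6294 and 4743. With quantile normalization fed liver against WAT split into 4460 and 5870 and fasted liver against WAT into 4679 and 5712. Scan day was not run as a block for tissue comparisons, since no day held 2 tissues.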
